A study of Homo sapiens with 6 samples.

Results

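Transcripts of 38 human enzymes that make, activate, burn or esterify fatty acids were followed in A549, a lung adenocarcinoma cell line, with and without knockdown of STAU1, the gene of Staufen1, a protein that binds double-stranded RNA. The genes were taken by symbol from a fixed list, and all 38 were found once each among the 30493 genes of the deposited count table. The 38 enzymes were divided by role into 12 genes of synthesis, elongation and desaturation, 4 of activation, 16 of oxidation and 6 of glycerolipid assembly. The study held 3 control libraries, labelled as carrying a control plasmid, and 3 libraries labelled STAU1 knockdown, all of bead-captured mRNA from that single line. The labels name neither the knockdown reagent's sequence nor separate cultures for the replicates, and the knockdown columns carry an si prefix while the controls are called plasmid controls. Adjusted p-values therefore rest on a spread between libraries that may be technical only.

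Fatty acid synthesis starts in the cytosol, where citrate is split to acetyl-CoA, carboxylated to malonyl-CoA and built into palmitate, which elongases and desaturases in the endoplasmic reticulum then lengthen and unsaturate. Acyl-CoA synthetases activate fatty acids with coenzyme A, and the product either enters mitochondria through the carnitine system for beta-oxidation or is esterified to glycerol to form phospholipids and triglycerides. Malonyl-CoA is known to inhibit the carnitine entry step, which ties the opposing routes together. In alveolar type II cells, which A549 cells are often used to model, the synthesis and esterification routes supply the saturated phosphatidylcholine of surfactant.

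The 38 transcripts moved by small amounts in both directions. LPCAT1, the lysophosphatidylcholine acyltransferase, rose most, to 1.61 times its control level (log2 fold change 0.68, SE 0.03). All 4 acyl-CoA synthetases and both acetyl-CoA carboxylases rose. The desaturases SCD, FADS1 and FADS2 and the elongases ELOVL5 and ELOVL7 fell, though FADS1 not with total-count scaling or on the FPKM scales. Of the oxidation enzymes 4 were higher and 4 lower, none by more than 0.19 on the log2 scale. The 4 higher calls held in every setting tried, but total-count scaling moved every member upward and could hardly end a higher call. On the FPKM scales, where the median of all tested genes also lay above 0, 7 oxidation enzymes were higher and 0 lower.

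Differences were tested with edgeR's quasi-likelihood test over all 17089 genes with enough counts, and a gene was called at a Benjamini-Hochberg adjusted p under 0.05. By that rule 14 of the 38 were higher and 10 lower in knockdown, and 14 were not called, where 22.2% of all tested genes were higher and 22.0% lower. The 24 called members are 63.2% of the list, against 44.2% of all tested genes called in either direction. Abundant genes are called more often: among the 9574 genes of at least 10 CPM (counts scaled to library size with TMM factors) 60.5% were called, and of the 36 members at that level 23 were called (63.9%), a share close to that background. Groups did not overlap for 26 members (68.4%), against 51.4% of all tested genes. Only LPCAT1 was called with a change of at least 1.5-fold, 2.63% of the members, where 6.34% of all tested genes were. The median absolute log2 fold change was 0.13 for the members and 0.18 for all tested genes. These shares without overlap or of at least 1.5-fold, and these medians, were not compared at a like level. They can therefore not be read as particular to the members.

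**Figure D1:**
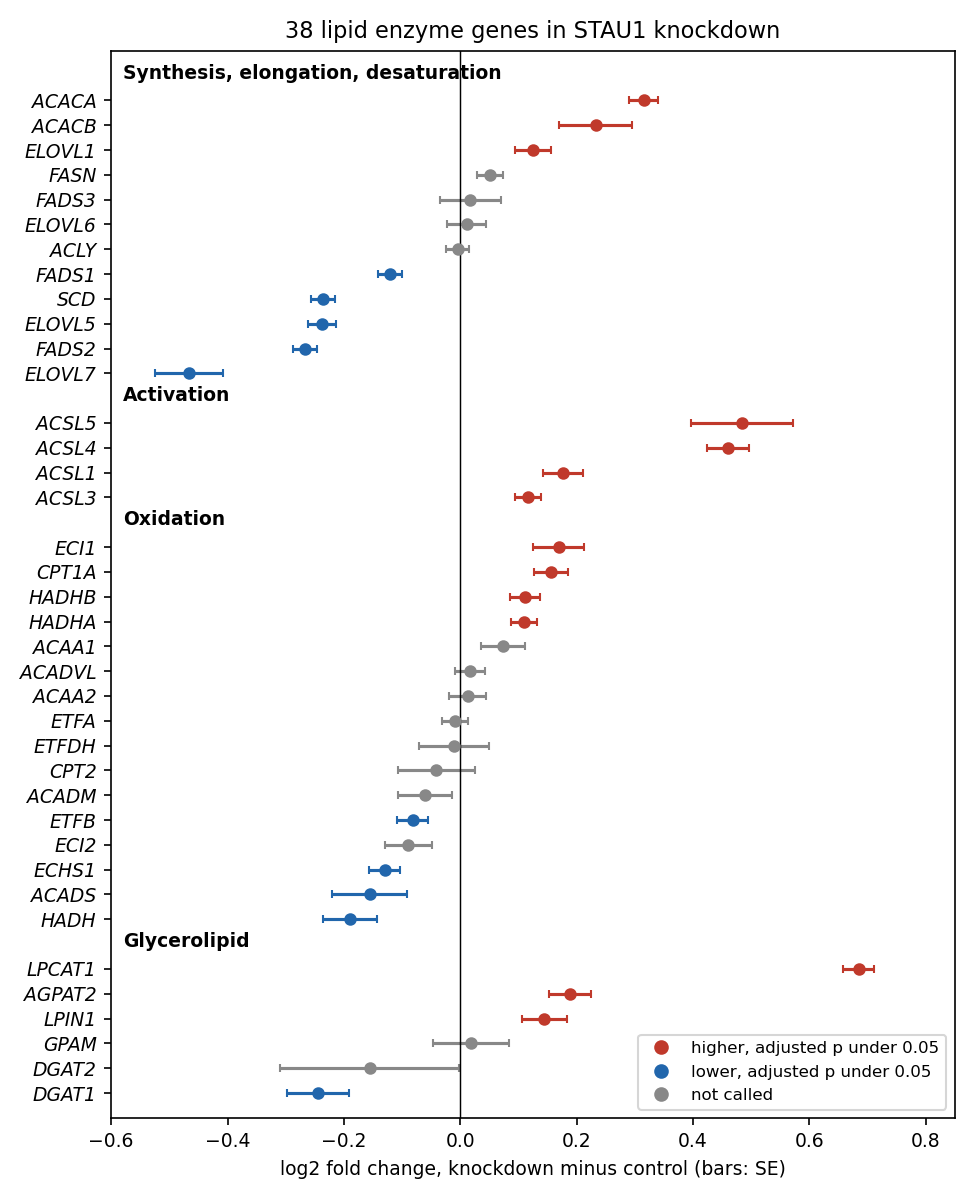
Log2 fold change of each of the 38 genes, knockdown minus control, with SE as bars, grouped by role and coloured by call at an adjusted p under 0.05. LPCAT1 stands at 0.68 and ELOVL7 at -0.47, and the oxidation genes lie between -0.19 and 0.17.

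Library totals ran from 30354219 to 35431441 counts. STAU1 itself held 120.5, 125 and 117 CPM in controls and 16.0, 15.7 and 14.6 CPM in knockdown. All 5 epithelial markers were present, and summed to between 8757 and 8766 CPM in controls and between 6537 and 6744 CPM in knockdown. That sum is almost wholly KRT8 and KRT18, which fell, while EPCAM and CDH1 rose and KRT19 was not called. The 7 fibroblast and endothelial markers summed to between 7.54 and 7.97 CPM in controls and between 11.7 and 13.4 CPM in knockdown. Most of that sum was LUM, which was called higher, as were CDH5 and PDGFRA at low levels. Of the 5 adipocyte markers 3 were listed. Their sum, almost wholly the droplet gene CIDEC, was between 9.83 and 11.01 CPM in controls and between 12.3 and 14.6 CPM in knockdown. The 5 hepatocyte markers summed to between 1.32 and 1.51 CPM in controls and between 1.69 and 2.44 CPM in knockdown. Among them TTR was called higher, at a low level. Of the 5 immune markers 3 were listed, summing to between 12.9 and 14.3 CPM in controls and between 15.8 and 18.2 CPM in knockdown, nearly all CD14, which rose. Mitochondrially encoded genes took between 17.3% and 17.9% of counts in controls and between 15.8% and 16.1% in knockdown. The part of these shifts in the results was not tested, and in bulk RNA fewer cells of a type and less RNA per cell cannot be told apart.

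Values below are listed in the order of replicates 1 to 3, the ± after a mean is the SD (n = 3), and SE stands for the standard error of a log2 fold change. At the head of synthesis, ACLY, the ATP citrate lyase that makes cytosolic acetyl-CoA, held 625, 619 and 629 CPM in controls and 626, 624 and 618 CPM in knockdown. These groups overlap, and the log2 fold change was -0.0042 (SE 0.02). With total-count scaling ACLY was 0.07 higher on the log2 scale and was called, and that scaling moved the median of all genes to 0.08. ACACA, the cytosolic acetyl-CoA carboxylase that makes malonyl-CoA (ENSG00000278540.5, chromosome 17, 37084988 to 37406818, minus strand, GRCh38), held 133, 134 and 133 CPM in controls and 168, 168 and 162 CPM in knockdown. Every knockdown library lay above every control, by 1.24-fold on average (log2 fold change 0.32, SE 0.02, edgeR adjusted p = 4.7e-15). ACACB, the carboxylase isoform of the mitochondrial surface, is known for malonyl-CoA that restrains fatty acid entry. It held 13.9, 13.5 and 14.3 CPM in controls and 15.8, 16.8 and 16.4 CPM in knockdown, again without overlap (0.23, SE 0.06, edgeR adjusted p = 0.0019). FASN, the fatty acid synthase that builds palmitate, held 218, 216 and 224 CPM in controls and 227, 229.5 and 225 CPM in knockdown. Its groups did not overlap either, but the difference of 0.05 (SE 0.02) was not called (edgeR adjusted p = 0.062). That call turned with the setting, since FASN passed with the filter of 1 CPM (adjusted p = 0.037 in edgeR), without control replicate 3 (adjusted p = 0.029), with total-count scaling and on the FPKM scales. Within each library, where scaling cancels, the log2 ratio of ACACA to FASN counts was -0.71, -0.69 and -0.75 in controls and -0.44, -0.45 and -0.47 in knockdown, so the carboxylase gained on the synthase in all 3 knockdown libraries.

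Desaturases put double bonds into acyl chains, and 3 of the 4 fell. SCD, the stearoyl-CoA desaturase that makes oleate and palmitoleate (ENSG00000099194.6, chromosome 10, 100347124 to 100364834, plus strand, GRCh38), held 2794, 2738 and 2700.2 CPM in controls and 2338, 2389 and 2263 CPM in knockdown. The groups were well apart, at 2744 ± 47.1 to 2330.0 ± 63.2 CPM (log2 fold change -0.24, SE 0.02, edgeR adjusted p = 1.6e-13). A processed copy, SCDP1, is annotated and may share its reads. FADS2, the delta-6 desaturase that opens polyunsaturated fatty acid synthesis (ENSG00000134824.14, chromosome 11, 61792980 to 61867354, plus strand, GRCh38), held 751, 778 and 760.3 CPM in controls and 638, 639 and 626 CPM in knockdown. It was the member with the largest fall among the desaturases (-0.27, SE 0.02, edgeR adjusted p = 2.5e-15). FADS1, the delta-5 desaturase that acts after it, held 627, 624 and 613 CPM in controls and 573, 580.1 and 561 CPM in knockdown. Its smaller difference (-0.12, SE 0.02, edgeR adjusted p = 3.0e-06) was no longer called with total-count scaling (-0.04) or on the FPKM scales (-0.01). FADS3, the third gene of the cluster, held 25.3, 26.4 and 28.2 CPM in controls and 27.0, 24.9 and 28.8 CPM in knockdown, with overlapping groups and a log2 fold change of 0.02 (SE 0.05). The within-library log2 ratio of FADS2 to FADS3 counts was 4.89, 4.88 and 4.75 in controls and 4.56, 4.68 and 4.44 in knockdown, below every control. Between FADS1 and FADS2 the same ratio was -0.26, -0.32 and -0.31 in controls and -0.16, -0.14 and -0.16 in knockdown, so FADS2 fell by more than its neighbour.

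FADS1 and FADS2 lie on opposite strands of chromosome 11 with overlapping 5′ ends. The FADS1 RefSeq start (61817003) lies inside FADS2, 599 bases past the nearer of the FADS2 starts (61816404), which is the one shown. Their annotated exons share 490 bases. Their promoter windows, with that of SCD, are shown because these genes were called lower with TMM. FADS1 lost that call with total-count scaling and on the FPKM scales. Each window runs from 250 bases before to 50 bases after a RefSeq start on GRCh38.p14, read 5′ to 3′ on the gene's strand, and capitals mark GGGCGG (the Sp1 box) or CCAAT (the NF-Y box) in either orientation. The FADS2 window is at chr11:61816154-61816453 on the plus strand, the FADS1 window at chr11:61816954-61817253 on the minus strand and the SCD window at chr10:100346983-100347282 on the plus strand.
FADS2: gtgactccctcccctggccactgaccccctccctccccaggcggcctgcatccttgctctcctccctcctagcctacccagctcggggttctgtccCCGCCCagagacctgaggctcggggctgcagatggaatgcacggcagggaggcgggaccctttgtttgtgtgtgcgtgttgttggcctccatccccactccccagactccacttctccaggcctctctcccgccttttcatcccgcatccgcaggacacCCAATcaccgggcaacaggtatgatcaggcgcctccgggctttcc
FADS1: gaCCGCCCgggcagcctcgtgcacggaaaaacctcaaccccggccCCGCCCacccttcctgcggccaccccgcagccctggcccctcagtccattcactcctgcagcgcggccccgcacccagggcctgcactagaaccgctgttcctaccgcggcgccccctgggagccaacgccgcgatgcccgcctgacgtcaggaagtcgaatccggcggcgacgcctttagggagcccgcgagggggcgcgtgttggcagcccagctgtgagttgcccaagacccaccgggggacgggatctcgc
SCD: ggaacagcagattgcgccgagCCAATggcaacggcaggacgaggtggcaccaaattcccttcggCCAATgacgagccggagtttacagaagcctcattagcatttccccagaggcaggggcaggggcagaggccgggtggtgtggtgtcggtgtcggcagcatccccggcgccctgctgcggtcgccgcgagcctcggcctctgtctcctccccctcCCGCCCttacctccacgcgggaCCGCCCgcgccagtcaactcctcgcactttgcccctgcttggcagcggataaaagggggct
The SCD window holds 2 CCAAT boxes, starting 229 and 186 bases before the start, and 2 Sp1 boxes, while FADS2 holds 1 CCAAT box just past its start and 1 Sp1 box and FADS1 holds 2 Sp1 boxes and no CCAAT. These are matches of letters, not measured binding.

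The elongases, which add carbon units to existing acyl chains, moved in different directions. ELOVL7, which acts on saturated long chains (ENSG00000164181.14, chromosome 5, 60751791 to 60844389, minus strand, GRCh38), held 22.7, 24.2 and 23.2 CPM in controls and 18.1, 17.4 and 15.5 CPM in knockdown. This was the largest fall of the 38, 1.38-fold (log2 fold change -0.47, SE 0.06, edgeR adjusted p = 3.3e-09), at a low level. ELOVL5, the elongase of polyunsaturated chains, held 174, 176 and 175 CPM in controls and 150.3, 149.6 and 146 CPM in knockdown. Its fall (-0.24, SE 0.02) was of the size of that of FADS2, which acts in the same route. ELOVL1, which makes very long saturated chains, held 82.3, 78.2 and 80.8 CPM in controls and 88.5, 85.4 and 89.3 CPM in knockdown and rose (0.13, SE 0.03, edgeR adjusted p = 6.9e-04). ELOVL6, which takes palmitate to stearate, held 71.5, 68.0 and 70.8 CPM in controls and 70.6, 71.1 and 70.3 CPM in knockdown, with overlapping groups and a log2 fold change of 0.01 (SE 0.03). Thus FADS2, ELOVL5, SCD and ELOVL7 fell in every setting tried, and these 4 were the only members called lower on either FPKM scale. The polyunsaturated route did not fall as a whole, since FADS1 lost its call on those scales. ELOVL2, another elongase outside the 38 and named after its values were seen, rose from 13.2 ± 0.422 to 15.1 ± 0.330 CPM (0.19, SE 0.06).

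**Figure D2:**
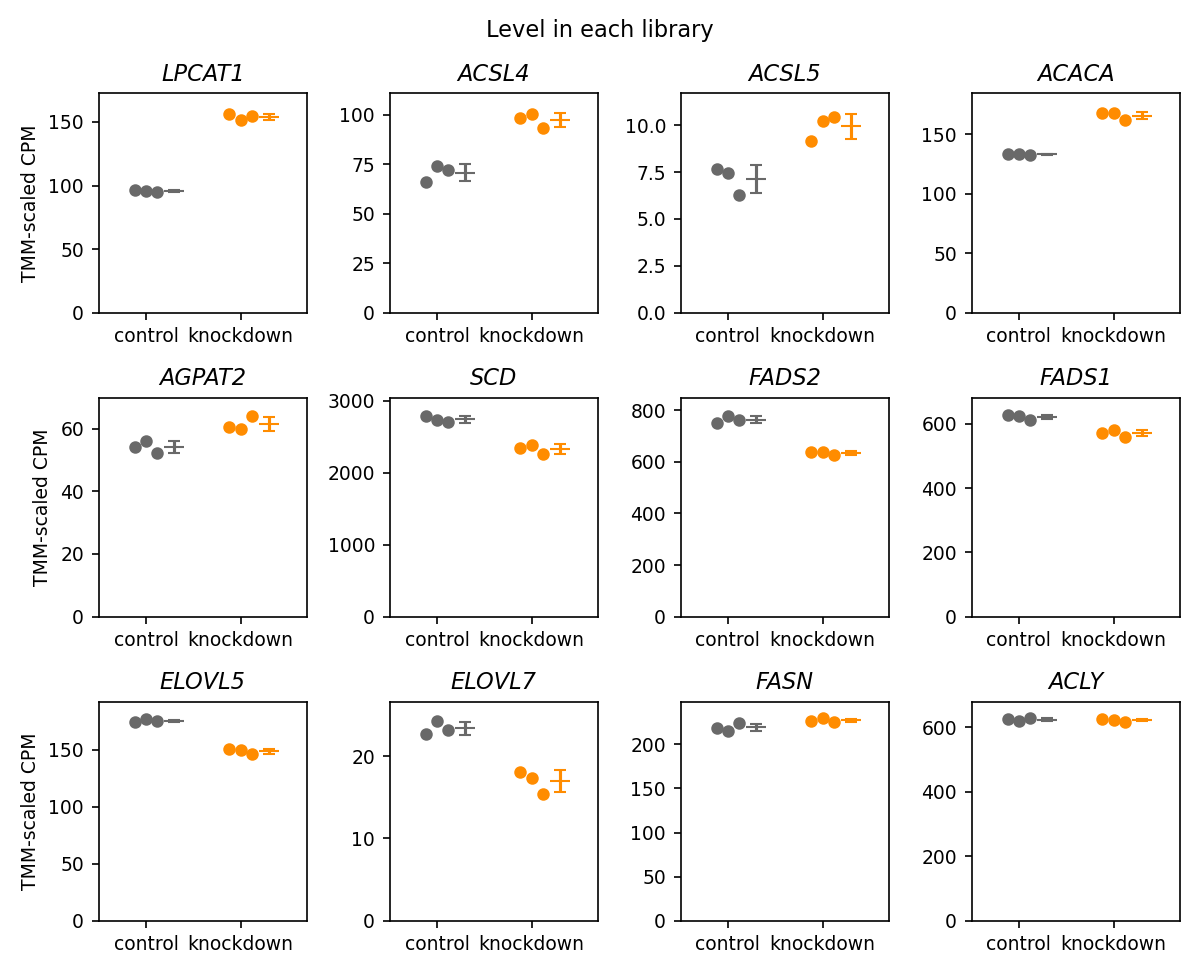
TMM-scaled CPM of 12 of the genes in each library (points, replicates 1 to 3 from left to right) with mean and SD beside them, on axes that start at 0. LPCAT1 separates most, from about 96 to 154 CPM, and ACLY overlaps between groups.

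Activation was the one role in which every gene moved the same way, and all 4 acyl-CoA synthetases rose. ACSL4, which prefers arachidonate and is known for its part in ferroptosis, held 65.9, 74.1 and 71.9 CPM in controls and 98.1, 100.2 and 93.3 CPM in knockdown. The groups are clearly apart, 1.38-fold higher (log2 fold change 0.46, SE 0.04, edgeR adjusted p = 1.8e-12). ACSL5, an isoform of mitochondria and endoplasmic reticulum, was the least abundant, at 7.64, 7.45 and 6.28 CPM in controls and 9.18, 10.2 and 10.4 CPM in knockdown. It rose by a like amount with a wider error (0.48, SE 0.09, edgeR adjusted p = 8.3e-06). ACSL1, the isoform prominent in liver, fat and heart, held 63.3, 65.5 and 60.5 CPM in controls and 72.5, 71.4 and 70.2 CPM in knockdown (0.18, SE 0.03). ACSL3, which sits at nascent lipid droplets, was the most abundant and held 239, 232 and 241 CPM in controls and 255, 259.7 and 257 CPM in knockdown (0.12, SE 0.02). All 4 calls held in every setting tried, though total-count scaling and log2(FPKM + 0.1) moved every member upward and could hardly end them. The rise was not of one size, since the log2 ratio of ACSL4 to ACSL3 counts went from -1.86, -1.65 and -1.74 in controls to -1.38, -1.37 and -1.46 in knockdown, above every control. Summed over the 4 genes the level was 375, 379 and 379 CPM in controls and 435, 442 and 431 CPM in knockdown, 15.3% higher, and on the FPKM scale the sum was 26.4% higher.

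Oxidation begins at the carnitine gate. CPT1A, the outer-membrane carnitine palmitoyltransferase that malonyl-CoA inhibits, held 86.1, 82.9 and 83.7 CPM in controls and 92.9, 95.0 and 93.6 CPM in knockdown. It rose in all 3 knockdown libraries (0.16, SE 0.03, edgeR adjusted p = 1.9e-05), a call kept in every setting. Total-count scaling and log2(FPKM + 0.1) could hardly end that call, since they moved every member upward. CPT2, which returns the acyl group to coenzyme A inside the mitochondrion, held 15.7, 15.8 and 14.0 CPM in controls and 14.2, 14.3 and 15.7 CPM in knockdown. These overlap, with a log2 fold change of -0.04 (SE 0.07), though 11.0% of its annotated exon bases are shared with an antisense transcript. Hence CPT1A was higher relative to CPT2 in 3 of 3 knockdown libraries, with a log2 count ratio of 2.45, 2.39 and 2.577 in controls and 2.71, 2.73 and 2.577 in knockdown, where the highest control and the lowest knockdown library nearly touch.

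Of the acyl-CoA dehydrogenases, which take the first oxidation step, none gave a stable difference. ACADVL, for very long chains, held 214, 206 and 219.6 CPM in controls and 212, 210.3 and 225 CPM in knockdown (0.02, SE 0.03), and ACADM, for medium chains, held 34.2, 36.8 and 40.6 CPM in controls and 35.6, 36.0 and 35.5 CPM in knockdown (-0.06, SE 0.05). ACADS, for short chains, held 16.7, 15.9 and 17.3 CPM in controls and 13.9, 14.7 and 16.2 CPM in knockdown, with knockdown replicate 3 inside the control range. Its call as lower (-0.16, SE 0.06, edgeR adjusted p = 0.045) ended in 9 of 14 other settings, among them DESeq2 (adjusted p = 0.14) and the omission of control replicate 1 or 3 or of knockdown replicate 1 or 2.

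HADHA and HADHB, the subunits of the mitochondrial trifunctional protein that carries the later steps for long chains, rose together. HADHA held 275, 269 and 262 CPM in controls and 290.0, 287 and 294 CPM in knockdown and HADHB held 135, 134 and 130.5 CPM in controls and 141, 145 and 146 CPM in knockdown. Both sets are without overlap and of the same size, 0.11, SE 0.02 for HADHA and 0.11, SE 0.03 for HADHB on the log2 scale, with edgeR adjusted p of 5.9e-05 and 3.4e-04. Their log2 count ratio stood at 1.03, 1.01 and 1.01 in controls and 1.04, 0.98 and 1.01 in knockdown, so the balance of the subunits differed by less than its spread. Annotated processed copies of HADHA may share reads. The genes lie head to head on chromosome 2 with RefSeq starts 307 bases apart, and their promoter windows share 194 bases, read from opposite strands. They are shown as an example of paired genes with matched changes, HADHA at chr2:26244583-26244882 on the minus strand and HADHB at chr2:26244689-26244988 on the plus strand, with Sp1 boxes in capitals.
HADHA: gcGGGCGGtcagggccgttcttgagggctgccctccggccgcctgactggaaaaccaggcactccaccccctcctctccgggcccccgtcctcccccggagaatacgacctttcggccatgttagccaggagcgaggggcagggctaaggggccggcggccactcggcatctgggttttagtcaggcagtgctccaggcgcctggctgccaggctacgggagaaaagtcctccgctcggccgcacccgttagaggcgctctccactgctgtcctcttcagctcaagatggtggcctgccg
HADHB: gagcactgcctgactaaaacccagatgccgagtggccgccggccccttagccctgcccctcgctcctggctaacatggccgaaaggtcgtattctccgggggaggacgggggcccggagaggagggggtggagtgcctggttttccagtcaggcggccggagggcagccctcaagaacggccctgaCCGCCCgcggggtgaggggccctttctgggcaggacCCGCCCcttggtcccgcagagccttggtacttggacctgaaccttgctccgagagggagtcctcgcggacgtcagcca
The GGGCGG near the distal end of the HADHA window is the same stretch of DNA as the CCGCCC that starts 64 bases before HADHB. HADHB holds a second Sp1 box nearer its start, and neither window holds CCAAT.

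HADH and ECHS1, matrix enzymes of shorter chains, were called lower. HADH, the short-chain hydroxyacyl-CoA dehydrogenase, held 31.1, 33.3 and 31.4 CPM in controls and 28.6, 27.4 and 28.0 CPM in knockdown and fell (-0.19, SE 0.05, edgeR adjusted p = 6.9e-04). ECHS1, the short-chain enoyl-CoA hydratase, held 139, 143 and 138 CPM in controls and 127, 125 and 132 CPM in knockdown and also fell (-0.13, SE 0.03, edgeR adjusted p = 5.1e-05). Both calls ended on the FPKM scales, at -0.05 for HADH and -0.02 for ECHS1 on log2(FPKM + 1), and that of ECHS1 also with total-count scaling (-0.05). Of the isomerases that deal with double bonds, ECI1 held 33.6, 33.8 and 32.8 CPM in controls and 35.9, 37.8 and 38.9 CPM in knockdown and rose (0.17, SE 0.04, edgeR adjusted p = 0.0012). ECI2, found in mitochondria and peroxisomes, held 45.8, 44.6 and 48.7 CPM in controls and 42.7, 43.6 and 44.6 CPM in knockdown. Its knockdown libraries all lay below the lowest control, replicate 3 barely, and the difference of -0.09 (SE 0.04) was not called (edgeR adjusted p = 0.068), though it was without control replicate 2 (adjusted p = 0.032) and without knockdown replicate 3 (0.049). ECI2 shares 27.1% of its annotated exon bases with C6orf201 on the opposite strand, so its reads may not be its own.

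Thiolases close the cycle. ACAA2, the mitochondrial thiolase, held 74.7, 77.1 and 78.2 CPM in controls and 78.6, 75.0 and 78.5 CPM in knockdown (0.01, SE 0.03), and ACAA1, the peroxisomal one, held 46.7, 45.1 and 45.0 CPM in controls and 48.7, 47.5 and 47.8 CPM in knockdown (0.07, SE 0.04). Neither was called, although both passed with total-count scaling, at 0.09 and 0.15, and on the FPKM scales, and ACAA1 shares 19.7% of its exon bases with DLEC1. The electron transfer flavoprotein, which takes electrons from the dehydrogenases, has the subunits ETFA and ETFB. ETFA held 251, 251 and 243 CPM in controls and 248, 245 and 248 CPM in knockdown, overlapping (-0.01, SE 0.02). ETFB held 130.0, 139 and 135 CPM in controls and 127, 129.6 and 125 CPM in knockdown, where knockdown replicate 2 came close to control replicate 1, and was called lower (-0.08, SE 0.03, edgeR adjusted p = 0.011). The ETFB direction turned on the FPKM scales (0.03), and its call ended without control replicate 2 (adjusted p = 0.11), without knockdown replicate 3 (0.055) and with total-count scaling. ETFDH, which passes the electrons on to ubiquinone, held 22.3, 20.8 and 20.0 CPM in controls and 23.2, 20.1 and 19.5 CPM in knockdown (-0.01, SE 0.06), with 10.9% of its exon bases shared with PPID.

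Among the glycerolipid enzymes LPCAT1 stood first. It re-acylates lysophosphatidylcholine and is known for making the saturated phosphatidylcholine of lung surfactant. LPCAT1 (ENSG00000153395.10, chromosome 5, 1456480 to 1523977, minus strand, GRCh38) held 96.6, 95.9 and 95.2 CPM in controls and 156, 152 and 155 CPM in knockdown. No control library came near the knockdown libraries, and the standard error was small against the difference (log2 fold change 0.68, SE 0.03, edgeR adjusted p = 2.7e-26). Over the other settings its log2 fold change lay between 0.68 and 0.79. AGPAT2, which makes phosphatidic acid, held 54.1, 55.9 and 52.1 CPM in controls and 60.5, 60.0 and 64.1 CPM in knockdown and rose (0.19, SE 0.04, edgeR adjusted p = 3.2e-05). LPIN1, the phosphatidate phosphatase that makes diacylglycerol, held 48.6, 47.6 and 47.2 CPM in controls and 53.5, 55.1 and 50.1 CPM in knockdown and rose (0.14, SE 0.04, edgeR adjusted p = 0.0019). GPAM, the mitochondrial acyltransferase of the first step, held 15.2, 15.8 and 14.1 CPM in controls and 14.8, 16.5 and 14.5 CPM in knockdown, which overlap (0.02, SE 0.07). DGAT1, which makes triglyceride from diacylglycerol, held 23.6, 24.6 and 26.3 CPM in controls and 21.4, 21.4 and 20.2 CPM in knockdown and fell (-0.25, SE 0.05, edgeR adjusted p = 1.5e-04), a call lost on the FPKM scales (-0.11 and -0.13). DGAT2, the other triglyceride-forming enzyme, was the least abundant of the 38, at 2.51, 2.58 and 3.20 CPM in controls and 2.40, 2.47 and 2.57 CPM in knockdown, and its difference of -0.16 (SE 0.15) was within its error. Of the called members, then, AGPAT2, LPIN1 and LPCAT1 were higher, and DGAT1 was lower with a call that did not hold on the FPKM scales. This does not extend to whole steps of the route. Outside the 38, and named after their values were seen, AGPAT5 fell (-0.28, SE 0.04) and AGPAT3 rose (0.14, SE 0.04), while AGPAT1 and AGPAT4 were not called.

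The LPCAT1 promoter window is shown as that of the member that changed most, at chr5:1523911-1524210 on the minus strand, with its 3 Sp1 boxes in capitals.
LPCAT1: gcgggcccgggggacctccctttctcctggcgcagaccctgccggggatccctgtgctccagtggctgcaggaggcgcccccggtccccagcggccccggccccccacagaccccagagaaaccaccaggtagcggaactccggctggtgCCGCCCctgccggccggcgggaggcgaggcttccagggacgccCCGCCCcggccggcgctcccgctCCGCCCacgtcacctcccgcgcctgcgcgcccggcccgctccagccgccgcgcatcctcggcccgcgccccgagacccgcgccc
No CCAAT, sterol element or E-box letters were found in this window.

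Synthesis and oxidation were then set side by side. Of the 12 synthesis genes 3 were higher and 5 lower, and 4 were not called. Their median log2 fold change was 0.0033. Of the 16 oxidation genes 4 were higher and 4 lower, and 8 were not called. These counts moved with the scaling. Synthesis had 6 higher and 4 lower with total-count scaling, as on both FPKM scales. Oxidation had 8 higher and 1 lower with total-count scaling and 7 and 0 on either FPKM scale. In those settings the median of all tested genes also lay above 0, so these counts cannot be read as particular to either route. With TMM the oxidation median was -0.0097, and the median over all tested genes was -3.6e-04. The difference between the medians, 0.01, was smaller than its spread over knockdown libraries (SD 0.0174), so the medians did not separate the routes. What differed was the width: synthesis genes spanned -0.47 to 0.32 with a median absolute change of 0.18, and oxidation genes -0.19 to 0.17 with 0.09. Levels weigh the routes otherwise, since SCD, FADS1 and FADS2, which were called lower with TMM, hold most of the synthesis counts. The summed CPM of synthesis was 5538, 5495 and 5452 in controls and 4939, 4994 and 4822 in knockdown, 10.5% lower, while oxidation summed to 1552, 1549 and 1541 in controls and 1559.6, 1553 and 1588 in knockdown, 1.26% higher. On the FPKM scale, which carries no TMM factors, the synthesis sum fell by 3.77% and the oxidation sum was 7.51% higher. SCD alone gave 49.9% of the synthesis counts in controls and 47.4% in knockdown.

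Scaled per gene length, the ratio of summed synthesis to summed oxidation FPKM was 2.37, 2.33 and 2.34 in controls and 2.13, 2.16 and 2.02 in knockdown, 10.4% lower and without overlap. Without SCD the ratio was 0.992, 0.9896 and 1.004 in controls and 0.961, 0.963 and 0.923 in knockdown, 4.6% lower. Since numerator and denominator come from the same library, this ratio does not depend on the scaling between libraries. It is a description of these chosen genes and no p is given.

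**Figure D3:**
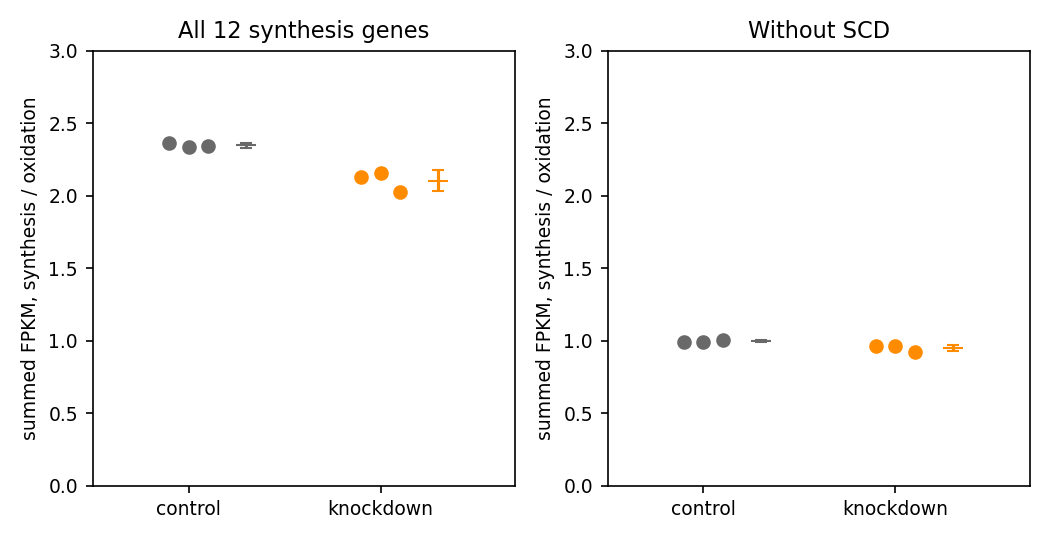
Ratio of summed FPKM of the 12 synthesis genes to that of the 16 oxidation genes in each library (points, replicates 1 to 3 from left to right) with mean and SD, with SCD on the left and without it on the right. The 3 knockdown libraries lie below the 3 controls in both panels, by 10.4% and by 4.6%.

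Per gene length the 38 transcripts covered a wide range. SCD led at 427 ± 6.85 FPKM in controls, followed by ACLY at 97.9 ± 1.31, ECHS1 at 89.6 ± 1.16, FADS2 at 59.0 ± 0.882, HADHA at 50.7 ± 1.14 and FADS1 at 49.6 ± 0.408. The last pair differed by about their SDs and their order is not firm. DGAT2 was last at 0.287 ± 0.0379, below ETFDH at 0.720 ± 0.0361 and ACACB at 0.780 ± 0.0300. Within families ACACA stood far above ACACB, at 8.36 ± 0.0208 FPKM, and ACSL3, at 13.4 ± 0.318, led ACSL1 at 8.40 ± 0.286, ACSL4 at 5.78 ± 0.337 and ACSL5 at 1.41 ± 0.138. In knockdown ACSL4, at 8.59 ± 0.182, came closer to ACSL1, at 10.2 ± 0.0700. LPCAT1, at 12.1 ± 0.0794 in controls and 21.0 ± 0.544 in knockdown, stayed below AGPAT2, at 24.1 ± 0.720 and 29.6 ± 1.71. The order within the ACSL, ELOVL and FADS families was the same in both groups.

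**Figure D4:**
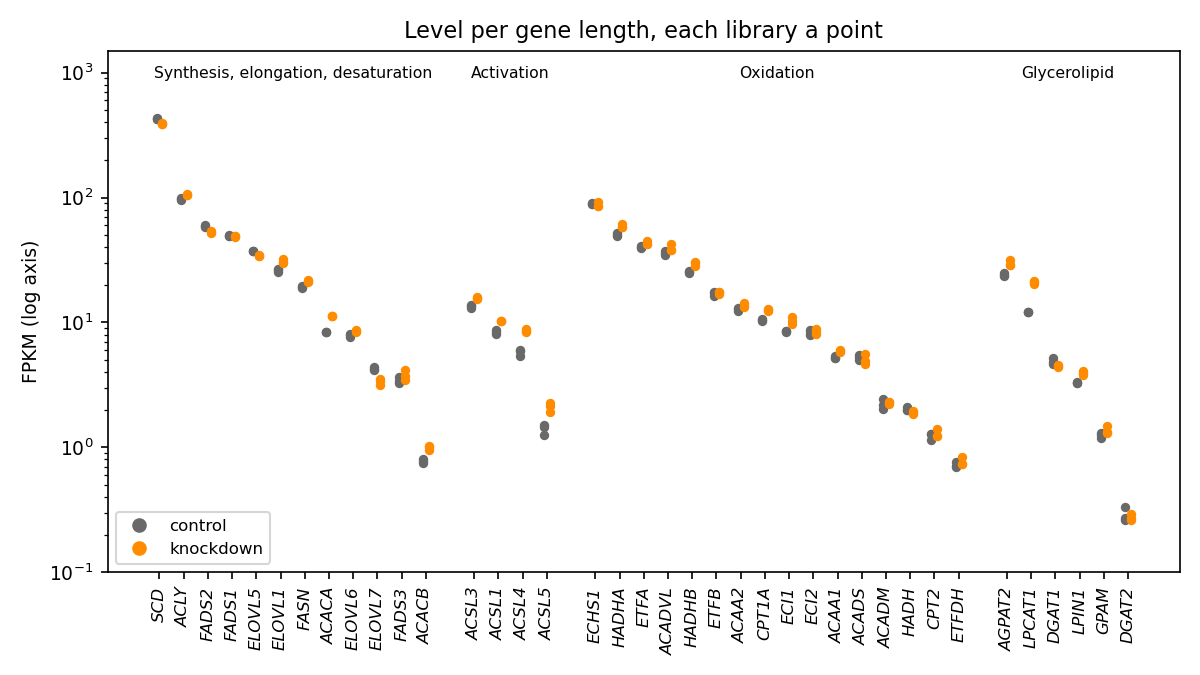
FPKM of each gene in each library on a log axis, ordered by control level within each role (grey controls, orange knockdown). SCD stands alone near 427 FPKM in controls and DGAT2 lies lowest near 0.287 FPKM.

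The choice of scaling bears most on the smaller changes, and 14 of the 38 genes had a log2 fold change of at most 0.1 in size with TMM. With total-count scaling the median of all tested genes was 0.08, and on log2(FPKM + 0.1) it was 0.10. The members then counted 21 higher and 6 lower with total-count scaling and 20 higher and 4 lower on either FPKM scale, where 14 and 10 were called with TMM. Shares of all tested genes called in those settings are not given here, so the excess of higher calls cannot be read as a trait of the members. All 14 genes called higher kept that call in the 14 settings tried, while of the 10 called lower only SCD, ELOVL5, ELOVL7 and FADS2 did. Total-count scaling and log2(FPKM + 0.1) moved every member upward, so they could end lower calls but hardly higher ones. The contrast is therefore no measure of which calls are firmer. The order of the genes by fold change was little altered, as the points lie along a line parallel to the diagonal. Both scalings mainly rescale a whole library, so this was nearly fixed in advance and is no support for the calls.

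**Figure D5:**
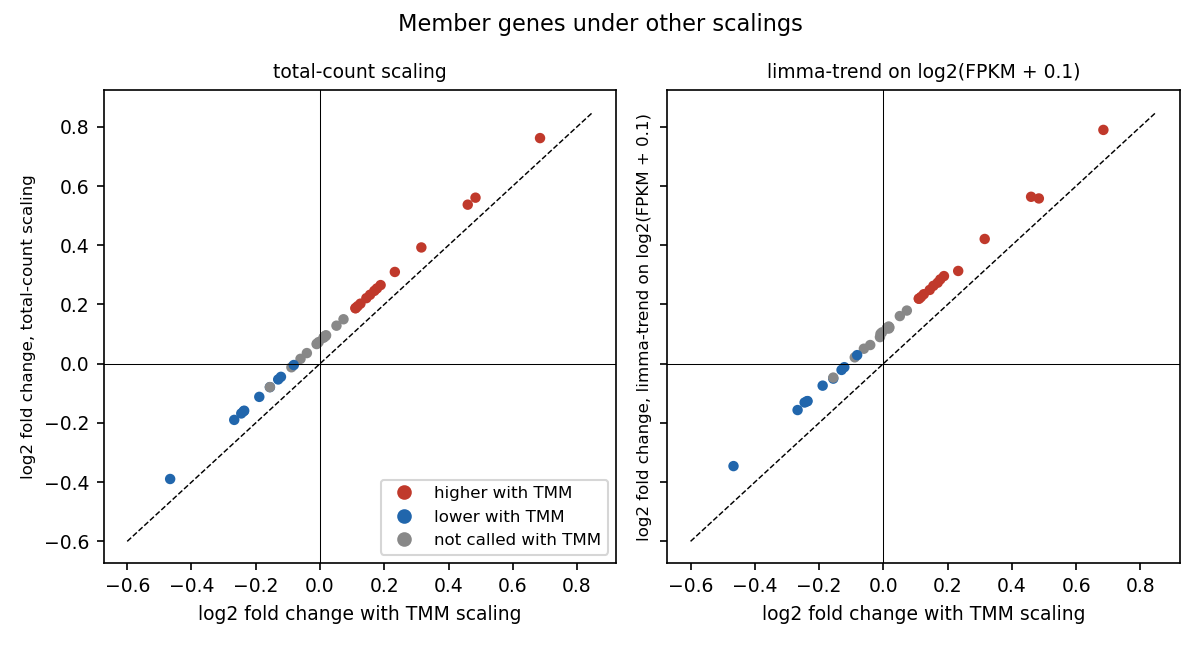
Log2 fold change of the 38 genes with TMM scaling (x axis) against total-count scaling (left) and limma on log2(FPKM + 0.1) (right), coloured by the TMM call; the dashed line marks equality. All points lie above the line, so ETFB, just below 0 with TMM, is above 0 on the FPKM scale.

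RefSeq promoter windows were on hand for 33 of the 38 genes, and those of ACAA1, DGAT1, DGAT2, ETFDH and FASN were not used here. GGGCGG, on either strand, was in a window of 29 of the 33 genes (87.9%), against 48.3% of all 27305 genes with a window. That background was not limited to genes expressed here. A gene counted if any of its windows matched, and members had 49 windows for 33 genes, against 35116 for 27305. The difference can therefore not be read as particular to these enzymes. CCAAT was in 14 of 33 (42.4%), against 39.7%. Split by call, CCAAT was in 5 of 14 higher, 5 of 9 lower and 4 of 10 uncalled genes, and GGGCGG in 12, 8 and 9 of them. The sterol regulatory element letters TCACNCCAC occurred in 1 gene, ACSL1, against 1.39% of all genes, and the E-box CACGTG in 1, ELOVL5, against 8.77%. AAGGTCA, a site of nuclear receptors such as ERR, occurred in 4.8% of all genes and in 0 members. None of these motifs contains another. These counts describe the windows of 300 bases alone.

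Other genes of the same routes were counted from lists set by function. Of 20 regulators 19 were tested, and 6 were higher and 4 lower, while 9 were not called (median log2 fold change 0.09). The 4 lower ones, named after their values were seen, were MID1IP1 (-0.20, SE 0.03), INSIG1 (-0.18, SE 0.03), MLX (-0.18, SE 0.04) and INSIG2 (-0.16, SE 0.05). PPARGC1A, the coactivator of mitochondrial and oxidative genes, rose from 7.85 ± 0.729 to 12.4 ± 0.473 CPM (0.66, SE 0.08), and PPARA, the nuclear receptor that drives oxidation genes in liver, from 6.02 ± 0.528 to 8.50 ± 0.712 CPM (0.50, SE 0.09). PRKAA2, a catalytic subunit of AMP-activated kinase, which inhibits the carboxylases, rose from 11.8 ± 0.452 to 16.4 ± 0.690 CPM (0.48, SE 0.07). All 3 are of low abundance. The genes that follow were chosen after their values were seen. SREBF1, the main driver of lipogenic genes, had 140.1 ± 3.06 to 146 ± 3.47 CPM and was not called (0.06, SE 0.03). SREBF2, the driver of sterol genes, rose from 116 ± 2.95 to 129 ± 2.59 CPM (0.15, SE 0.03). The remaining regulators called higher were PPARG, from 29.1 ± 0.947 to 37.2 ± 0.690 CPM (0.36, SE 0.04), and NR1H3 (0.15, SE 0.06).

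Of 18 other synthesis genes 16 were tested, with 6 higher, 3 lower and 7 not called. ME1, the malic enzyme that supplies NADPH, rose from 166 ± 4.21 to 215 ± 3.39 CPM (0.37, SE 0.02). SCD5, the second stearoyl-CoA desaturase, rose from 19.2 ± 1.57 to 22.4 ± 1.57 CPM (0.22, SE 0.06), opposite to SCD and at a far lower level. HACD2, a dehydratase of the elongation cycle, fell from 93.9 ± 0.521 to 80.8 ± 1.97 CPM (-0.22, SE 0.03).

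All 28 other oxidation genes were tested, with 8 higher, 5 lower and 15 not called. ACOX2, the peroxisomal oxidase of branched chains and bile acid precursors, fell from 15.5 ± 0.543 to 9.22 ± 0.799 CPM (-0.75, SE 0.07), more than any of the 38. SLC25A20, the carnitine-acylcarnitine carrier that works between CPT1A and CPT2, rose from 13.0 ± 0.371 to 16.9 ± 0.119 CPM (0.37, SE 0.06). ACOX3, another peroxisomal oxidase, rose from 7.37 ± 0.387 to 9.21 ± 0.616 CPM (0.32, SE 0.09). So along the carnitine gate CPT1A and the carrier were higher, and CPT2 was not called. Of the other isoforms of CPT1A, named after their values were seen, CPT1C fell from 11.6 ± 0.527 to 9.34 ± 0.891 CPM (-0.31, SE 0.08) and CPT1B was not called (-0.02, SE 0.05).

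Of 40 other glycerolipid and droplet genes 35 were tested, with 7 higher, 7 lower and 21 not called. LIPE, hormone-sensitive lipase, fell from 2.73 ± 0.0429 to 1.82 ± 0.476 CPM (-0.59, SE 0.17), at a low level. GPAT3, a glycerol-phosphate acyltransferase of the endoplasmic reticulum, fell from 31.0 ± 1.35 to 22.8 ± 0.825 CPM (-0.45, SE 0.05). CIDEC, a lipid droplet fusion protein and also one of the adipocyte markers, rose from 10.1 ± 0.441 to 12.5 ± 1.11 CPM (0.31, SE 0.08). Counts of called genes in these 4 lists, 46 of 98 tested, are near the 44.2% of all tested genes.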

How the data were processed

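Poly(A) RNA was sequenced from 6 A549 libraries, 3 control and 3 STAU1 knockdown, as paired 150-nt reads, per the labels' protocols. The authors deposited read counts per gene, as whole numbers, with 1 column per library, and FPKM values rounded to 2 decimals. HISAT2, DESeq2 and GRCh38 are named in the submitters' processing notes, with no role or version. The sources used here give no counting tool, annotation or strand setting, so overlapping or antisense genes and near-identical copies may share reads, and 14 of the 38 members have exons that overlap a gene on the opposite strand.

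Columns were matched to libraries by title. Genes were kept by filterByExpr (minimum count 10), scaled by TMM and tested with edgeR 4.0.16 (limma 3.58.1, R 4.3.3), by the quasi-likelihood F test with robust fitting, adjusted by Benjamini-Hochberg over 17089 genes, and all 38 members passed the filter. Standard errors are the absolute log2 fold change divided by the root of F. No replicate pair agreed within sampling noise (chi-square per degree of freedom 1.78 to 2.88), so each library was counted once. On simulated counts for the 17089 genes 58% of genes with a log2 change of 0.25 and 74% with 0.5 were called. False calls numbered 6 among 16889. That simulation gave every gene the same dispersion and changed far fewer genes than were called here, so it checks the code and does not measure false calls in these data. Alternatives were RLE and total-count scaling, no filter, a filter of 1 CPM in 3 libraries, DESeq2 1.42.0, limma on log2(FPKM + 1) and log2(FPKM + 0.1), the replicate number as a block and each library left out. Every member is named, and of each other pathway list the 3 called genes with the largest change are. Members and lists were chosen with earlier results of these data known. Coordinates are from GENCODE 29 and promoter sequences from RefSeq (GRCh38.p14).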

Additional observations from a re-analysis of the deposited data

How the results depend on the processing

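Of the 38 members 24 kept their call, or lack of one, in all 14 settings, and 19 of these also kept their sign. The sign varied over the settings for 12 members, 11 of them not called with TMM. With total-count scaling 6 members were lower, and 4 on either FPKM scale, where 10 were with TMM. With total-count scaling the medians were 0.0803 for synthesis, 0.0672 for oxidation and 0.16 for glycerolipid genes. On log2(FPKM + 1) synthesis had 0.10 and oxidation 0.0712, and on log2(FPKM + 0.1) synthesis had 0.11, oxidation 0.10 and glycerolipid genes 0.19. The synthesis median minus the oxidation median lay between -0.0081 and 0.0178 when 1 library was left out. Directions that turned with a call on either side were those of ACLY and ETFA, at 0.0729 and 0.0681 with total-count scaling, 0.10 each on log2(FPKM + 1) and 0.11 and 0.10 on log2(FPKM + 0.1), and of ETFB, at 0.0274 and 0.0289 on the FPKM scales. The median of all tested genes was 0.08 with total-count scaling, 0.05 on log2(FPKM + 1) and 0.10 on log2(FPKM + 0.1). With the replicate number as a block 14 members were higher and 10 lower, no member's call changed, and 3821 and 3844 of all genes were higher and lower. Same-numbered libraries deviated together with correlations of 0.05, 0.02 and 0.11 over 10250 genes, so the numbers were not taken to pair them. Genes of a few CPM such as DGAT2 and ACSL5 have wide errors at this depth. The comparison with genes of at least 10 CPM was added after seeing the data.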
